A study of Mus musculus with 60 samples.

Results

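Distal and proximal pieces of the mouse mandible were compared at E14.5 (E stands for embryonic day), when Meckel's cartilage, the chewing muscles, the tooth buds and the first bone of the lower jaw lie side by side. The 3 arrays labelled as distal mandible at E14.5 were set against the 3 labelled as proximal mandible at the same age, 6 of the 60 arrays of the series. All 6 come from C57Bl/6 embryos and carry the titles of batch 1. No group carries a labelled mutation or treatment. Each array was prepared from 3 micrograms of total RNA and hybridised to an Affymetrix mouse genome array. The series profiles 2 regions of the mandible and of the maxilla, the upper jaw, from E10.5 to E14.5 in 20 groups of 3 arrays. Its tissue labels read distal bone and proximal bone, although the pieces hold cartilage, muscle, epithelium and nerve as well, as the markers below show. The bone genes Ibsp, with 12.78, 12.90 and 13.36 in distal arrays and 13.17, 13.26 and 13.12 in proximal arrays, and Col1a2, with 14.46, 14.43 and 14.60 in distal arrays and 14.59, 14.60 and 14.57 in proximal arrays, were high on the log2 signal scale in both pieces. Neither where the pieces were cut nor whether the 3 arrays of a piece came from separate embryos is labelled. The p-values thus measure the spread between arrays, of which an unknown part may be technical.

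The mandible grows from the first pharyngeal arch. Its mesenchyme comes from the neural crest, carries no Hox code and reads its place along the jaw from signals of the overlying epithelium. Endothelin-1 acts through the Dlx5 and Dlx6 homeobox genes to set the ventral fate, and Hand2, Alx and Msx factors mark the distal tip, while Barx1, Meis and Nr2f factors mark more proximal mesenchyme. Sonic hedgehog from oral epithelium and tongue signals to the mesenchyme, which answers with Ptch1, Gli1 and Hhip. Muscle precursors enter the arch from cranial mesoderm and switch on Myf5, Myod1 and Myog before the contractile genes, and Myf6 comes up in maturing fibres.

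Expression is given as a log2 signal, so a difference of 1 is a 2-fold change, and every difference is distal minus proximal. The table assigned 18193 genes, each represented by 1 probe set. Called means a limma adjusted p under 0.05 (Benjamini-Hochberg over all 18193 genes), and SE is the standard error from that fit. Signals at or under 4.78, the highest lower quartile found on any array, do not show that a gene is present. Where 1 piece lay that low the log2 difference is a lower bound at best, and the fold is computed against 4.78 and written as at least. Array medians lay between 6.13 and 6.15. Pearson's r over probe sets was at least 0.997 between arrays of the same piece and at most 0.991 between pieces. With 3 arrays a piece, precision is limited. In pieces of whole tissue, fewer cells of a type and less RNA per cell cannot be told apart.

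Sex-linked transcripts differed between the arrays. Xist, the RNA of the inactive X chromosome, had 12.87, 13.24 and 12.40 in distal arrays and 7.17, 11.95 and 12.04 in proximal arrays, and the Y-linked Eif2s3y had 8.38, 2.88 and 8.49 in distal arrays and 9.68, 8.57 and 8.54 in proximal arrays. Distal replicate 2 was thus low for the Y-linked gene, proximal replicate 1 was low for Xist, and the other 4 arrays were high for both. The 3 arrays of a piece were therefore not all made from the same extract. Whether an array held RNA of several embryos is not labelled. Kdm5d and Uty, also Y-linked, were likewise under 4.78 in distal replicate 2. Xist itself was called, with a difference of 2.45 (SE 0.772, limma adjusted p = 0.0137), but without proximal replicate 1 the difference was 0.84 (adjusted p = 0.438). Counts are therefore also given without these 2 arrays, an alternative chosen after seeing the data, and the part of sex in other differences was not tested.

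**Figure D1:**
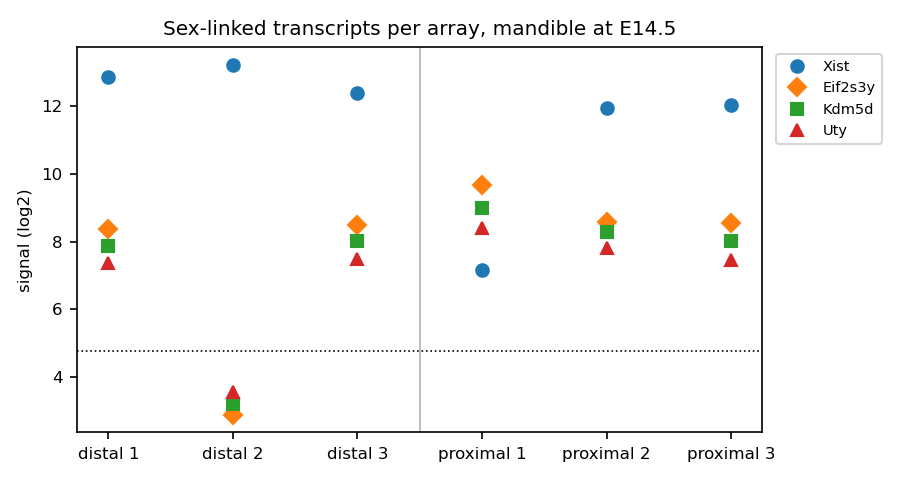
Log2 signal of Xist and of 3 Y-linked genes (Eif2s3y, Kdm5d, Uty) on each array of the distal (left) and proximal (right) mandible at E14.5. The dotted line is 4.78; the Y-linked genes fall under it only on distal replicate 2, and Xist is at 7.17, 11.95 and 12.04 on the proximal arrays.

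Position in the mandible was called for 4871 of 18193 genes (26.8%), 2726 higher in the distal piece (15%) and 2145 lower (11.8%). At least 2-fold differences were called for 538 genes (2.96%), 185 higher (1.02%) and 353 lower (1.94%). The arrays of the pieces did not overlap for 7576 genes (41.6%), 4230 of them higher (23.3%) and 3346 lower (18.4%), and the median difference over all genes was 0.00733. Without the 2 arrays of unlike sex-linked signal, 3686 genes were called, 2252 higher and 1434 lower, of which 535 in all were at least 2-fold. Without the arrays numbered 3, lower calls outnumbered higher ones, with 1817 higher and 1927 lower. The gene lists used below name 474 members, some in several lists, of which 445 were measured, and counts are of measured members. Each list count is to be read beside the shares over all genes, 15% higher and 11.8% lower.

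The 12 genes furthest above the proximal level in the distal piece included the transcription factors Alx1, Hand2 and Pax3, the epithelial genes Krt13, Krt6b, Sprr3, Tmprss11a and Odam, and Idi2, Dynap, Mcpt2 and Qrfpr. Alx1, a homeobox gene of frontonasal and distal arch mesenchyme, had 10.57, 10.75 and 10.49 in distal arrays and 6.11, 5.54 and 5.58 in proximal arrays. It was 29.1-fold higher (log2 4.86, SE 0.26, adjusted p = 1.27e-20), and the arrays of the pieces lay far apart. Hand2, a basic helix-loop-helix factor of the distal arch, had 12.13, 12.22 and 12.01 in distal arrays and 8.74, 8.77 and 8.36 in proximal arrays. That is a difference of 11.3-fold (log2 3.49, SE 0.116, adjusted p = 8.20e-29). Pax3, a paired-box factor of neural crest and muscle precursors, had 10.33, 10.19 and 10.16 in distal arrays against 7.13, 6.75 and 6.57 in proximal arrays, a 10.6-fold difference.

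Several of the 12 leading distal genes are known from oral epithelium and teeth. Krt13, the keratin of suprabasal oral mucosa, had 9.91, 9.25 and 9.31 in distal arrays and 6.13, 5.95 and 5.17 in proximal arrays (13.4-fold). Sprr3, a small proline-rich protein of the cornified envelope, had 9.26, 8.84 and 8.81 in distal arrays and 6.003, 5.46 and 5.496 in proximal arrays (9.96-fold). Krt6b, a keratin of stressed and oral epithelium, was at least 9.79-fold higher, with 8.24, 8.17 and 7.80 in distal arrays and 4.29, 4.49 and 4.48, all under 4.78, in proximal arrays. Tmprss11a, an epithelial serine protease, was at least 9.85-fold higher (8.24, 8.19 and 7.82 in distal arrays, 4.30, 4.501 and 3.89 in proximal arrays). Odam, an ameloblast-associated matrix protein that also marks the junctional epithelium of teeth, was at least 7.29-fold higher (7.65, 7.85 and 7.43 in distal arrays, 3.63, 3.86 and 3.97 in proximal arrays). By a condition of their choice, none of these genes had a distal array within the range of the proximal ones.

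The remaining leading distal genes have other roles. Idi2, an isomerase of isoprenoid synthesis, had 9.10, 8.64 and 8.53 in distal arrays and 4.86, 4.65 and 3.81 in proximal arrays, at least 15.8-fold higher. Dynap, which encodes a dynactin-associated membrane protein, was at least 8.5-fold higher, and Qrfpr, the receptor of the neuropeptide QRFP, at least 3.3-fold. Mcpt2, a mast cell protease, had 8.91, 8.96 and 8.63 in distal arrays and 5.83, 5.89 and 4.94 in proximal arrays (9.76-fold). Dynap had 7.93, 7.96 and 7.71 in distal arrays and 3.95, 3.75 and 3.58 in proximal arrays, and Qrfpr 6.53, 6.44 and 6.54 in distal arrays and 3.13, 3.29 and 3.29 in proximal arrays, which were all under 4.78.

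The 12 genes furthest below the proximal level included genes known from cartilage, muscle, the inner ear, nerve and early patterning. Myl2, the regulatory myosin light chain of slow skeletal fibres and of heart ventricle, had 4.65, 4.51 and 4.30 in distal arrays and 10.46, 9.45 and 10.26 in proximal arrays. Every distal array lay under 4.78, and the gene was at least 38.7-fold lower (adjusted p = 3.80e-25). Matn1, a matrilin of cartilage matrix, had 5.65, 6.40 and 7.57 in distal arrays and 12.08, 11.78 and 11.78 in proximal arrays, 40.4-fold lower (log2 -5.34, SE 0.325). The distal arrays spread by a log2 SD of 0.964 there, against 0.172 among the proximal ones. Oc90, which builds the otoconia of the inner ear, had 5.85, 5.87 and 5.78 in distal arrays and 11.31, 11.30 and 10.39 in proximal arrays, 35.9-fold lower (log2 -5.17, SE 0.237, adjusted p = 2.64e-23).

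Epyc, a small proteoglycan of growing cartilage, was 16.4-fold lower (6.17, 6.61 and 7.01 in distal arrays, 10.87, 10.70 and 10.34 in proximal arrays). C1qtnf3, a secreted collagen-like protein of cartilage, was 9.29-fold lower (7.11, 7.73 and 8.29 in distal arrays, 10.97, 10.55 and 11.26 in proximal arrays). Otor, secreted by cartilage and cochlea, was 8.62-fold lower (8.87, 8.79 and 8.67 in distal arrays, 11.98, 12.10 and 11.56 in proximal arrays). Each of these lay above 4.78 on every array of both pieces. Prph, the intermediate filament of peripheral neurons, was 15.4-fold lower (4.80, 4.97 and 5.11 in distal arrays, 8.499, 8.48 and 9.74 in proximal arrays), with proximal replicate 3 above the other proximal arrays.

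Hoxa2, the Hox gene that specifies the second arch, had 4.29, 4.34 and 4.20 in distal arrays and 8.18, 8.15 and 8.59 in proximal arrays, at least 11.51-fold lower. Zic2 (4.33, 3.82 and 3.93 in distal arrays, 8.19, 7.82 and 7.44 in proximal arrays) is a zinc-finger factor of neural and neural crest development and was at least 8.21-fold lower. Sim2, a bHLH-PAS factor, had 3.64, 3.67 and 3.86 in distal arrays and 7.10, 7.02 and 6.66 in proximal arrays, at least 4.42-fold lower. Distal signals of all 3 lay under 4.78. Calb1, a calcium-binding protein of sensory cells and neurons, was at least 11.7-fold lower, and Crh, the stress peptide corticotropin-releasing hormone, at least 5.84-fold lower (3.18, 3.12 and 3.10 in distal arrays, 7.30, 7.59 and 7.09 in proximal arrays). These 24 leading genes kept direction and call in all 527 recomputed differences. They were chosen for large differences on the same arrays, so this is not independent support.

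**Figure D2:**
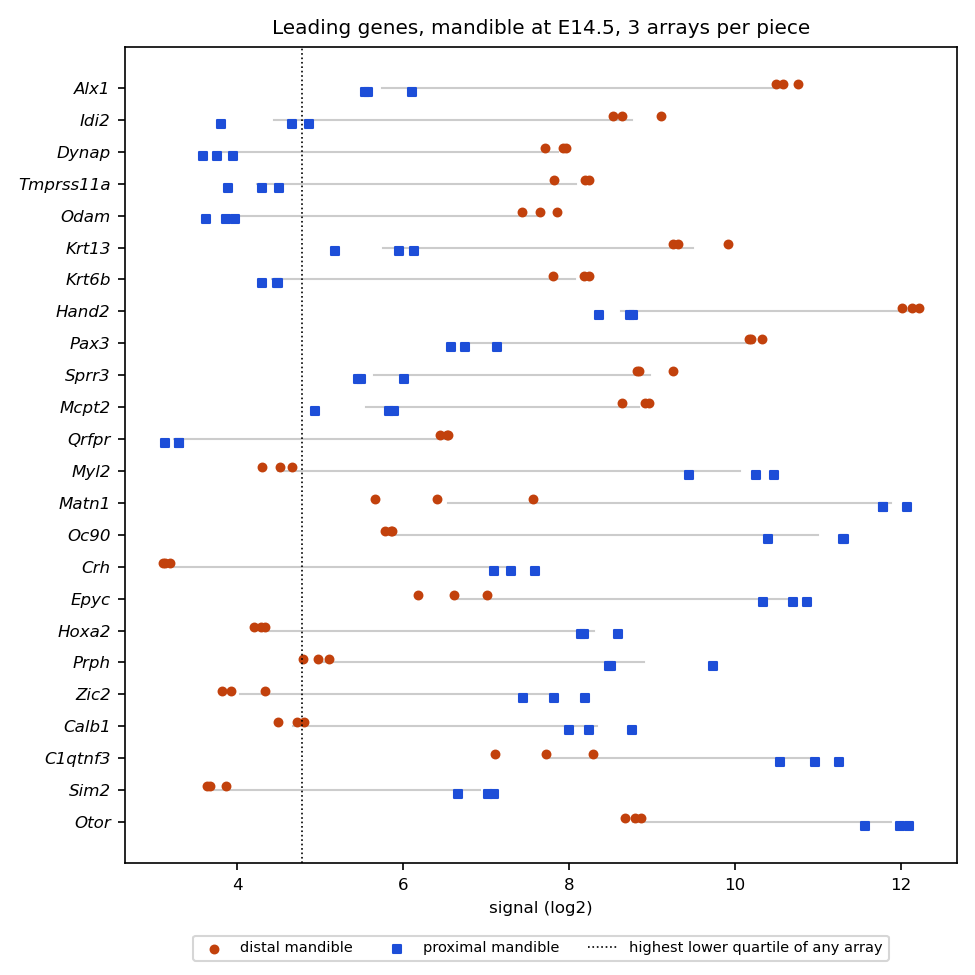
Log2 signal of the 12 leading higher and 12 leading lower genes on the 3 distal (circles) and 3 proximal (squares) mandible arrays at E14.5. The grey lines join the means, the dotted line is 4.78, and the arrays of the pieces do not overlap for any of the 24 genes, a condition of their choice.

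Among 12 measured genes of distal jaw patterning 9 were higher, 0 lower and 3 not called, with a median difference of 1.19. Besides Alx1, Hand2 and Pax3, the forkhead factors Foxf1 and Foxf2, which act downstream of hedgehog signalling in facial mesenchyme, were 2.5-fold and 2.78-fold higher. Msx1, a homeobox gene needed for tooth and jaw growth, had 10.93, 10.88 and 10.84 in distal arrays and 9.83, 9.88 and 9.45 in proximal arrays, 2.23-fold higher (adjusted p = 6.46e-05). Msx2 had 8.90, 8.85 and 8.74 in distal arrays and 7.84, 7.59 and 7.38 in proximal arrays, 2.34-fold higher. Alx4 was 1.37-fold higher at a low level (5.96, 5.57 and 5.80 in distal arrays, 5.43, 5.31 and 5.23 in proximal arrays), a call lost without distal replicate 1 (adjusted p = 0.0755). Hand1, the close relative of Hand2, was not called, with overlapping arrays (5.71, 6.06 and 5.72 in distal arrays, 5.61, 5.95 and 5.77 in proximal arrays), and Foxd1 had a difference of -0.41 (adjusted p = 0.189).

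Of 15 genes of proximal patterning 9 were lower, 2 higher and 4 not called (median -0.65). Zic1, a zinc-finger factor of somites and dorsal neural tissue, had 7.89, 7.75 and 7.74 in distal arrays and 11.23, 10.26 and 11.17 in proximal arrays, 8.53-fold lower. Barx1, a homeobox gene of molar-forming mesenchyme, had 7.34, 7.10 and 7.59 in distal arrays and 9.44, 9.62 and 9.39 in proximal arrays, 4.39-fold lower (adjusted p = 5.33e-18). The nuclear receptor Nr2f1 was 4.38-fold lower (9.33, 9.30 and 9.20 in distal arrays, 11.35, 11.31 and 11.56 in proximal arrays). Groups did not overlap for any of the 3. Meox2, a homeobox gene of somitic mesoderm and palate, and Meis1, a cofactor of Hox and Pbx proteins, were 3.42-fold and 2.06-fold lower. Emx2 and Dlx2, homeobox genes of forebrain and of the arches, were 1.9-fold and 1.55-fold higher, against the direction of the list, and the call of Emx2 was lost without the arrays numbered 2 (adjusted p = 0.0504).

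The Hox genes measured were 11, of which 9 were lower, 0 higher and 2 not called (median -0.64). Hoxa5, not called at -0.30, gave -1.38 on another probe set (limma adjusted p = 7.51e-06). Hoxb2, which acts beside Hoxa2 in the hindbrain and second arch, had 6.22, 6.41 and 6.501 in distal arrays and 8.47, 7.93 and 8.82 in proximal arrays (4.08-fold lower). Hoxd3 had 5.02, 5.17 and 5.18 in distal arrays and 6.71, 5.96 and 6.71 in proximal arrays (2.52-fold lower), with proximal replicate 2 the lowest of its group. Hoxb5 and Hoxc4 were also called lower, with differences of -0.76 (distal mean under 4.78) and -0.75, but missed the threshold when only batch 1 was fitted (adjusted p = 0.0737 and 0.0556, limma) and without proximal replicate 3 (0.101 and 0.0511).

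Dlx genes, which encode the nested homeobox code of the arches, split by member. Dlx6 was 1.64-fold lower (8.20, 8.13 and 8.49 in distal arrays, 9.11, 9.10 and 8.74 in proximal arrays) and Dlx1 1.57-fold lower (8.14, 8.29 and 8.19 in distal arrays, 8.84, 8.94 and 8.79 in proximal arrays). Dlx2 and Dlx3 were 1.55-fold and 1.29-fold higher, while another Dlx3 probe set gave 0.08 and was not called. Dlx4 and Dlx5 were not called, at -0.29 and -0.09. The call of Dlx6 was lost without the arrays numbered 1 (adjusted p = 0.0688), without those numbered 2 (0.086) and without the 2 arrays of unlike sex-linked signal (0.0832), and that of Dlx3 without distal replicate 1 (0.0859), distal replicate 3 (0.0666) or proximal replicate 3 (0.0766).

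Endothelin signalling as a list of 14 genes, Dlx members among them, had 4 higher, 1 lower and 9 not called (median 0.11), and 2 higher without distal replicate 1 or distal replicate 3. Pitx1, a homeobox gene of the mandible and hindlimb, had 9.51, 9.52 and 9.60 in distal arrays and 8.55, 8.73 and 8.37 in proximal arrays, 1.99-fold higher. Ece1, the enzyme that activates endothelins, was 1.28-fold higher. Gsc, a homeobox target of the pathway, was called at 0.60 (adjusted p = 0.0323), but not without distal replicates 1 or 3 or proximal replicates 1 or 3 (adjusted p = 0.0523 to 0.14). Edn1, the ligand itself, had a difference of 0.17 (adjusted p = 0.256).

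**Figure D3:**
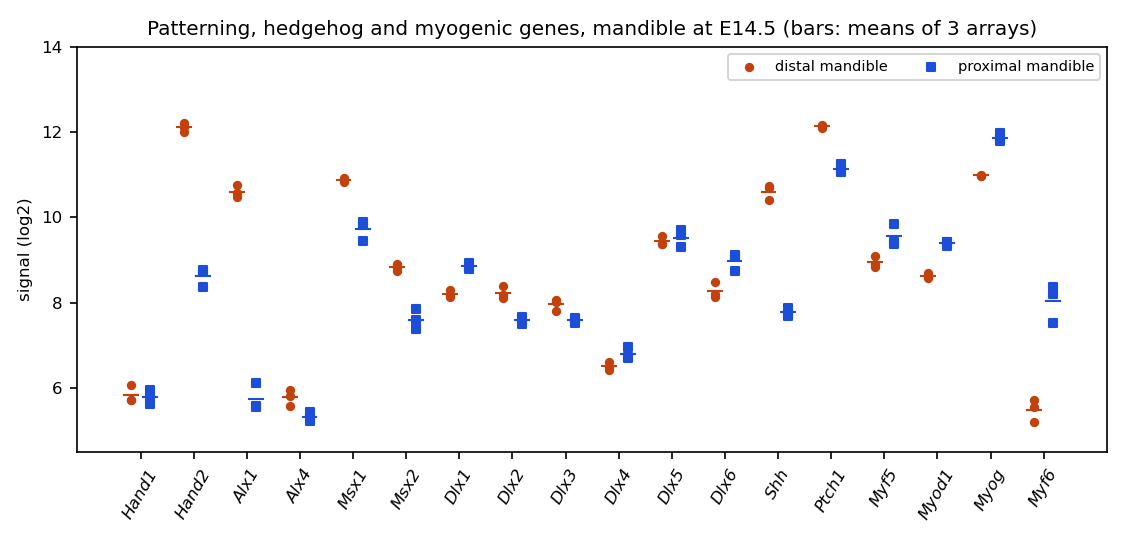
Log2 signal of 18 patterning, hedgehog and myogenic genes on each distal (circles, left of each pair) and proximal (squares, right) array of the mandible at E14.5, with bars at the means of 3 arrays. Hand2, Alx1, Msx1, Msx2, Shh and Ptch1 are higher distally, Myod1, Myog and Myf6 are lower, and Hand1 and Dlx5 overlap.

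Sonic hedgehog and several targets of its pathway were higher. Shh, the Sonic hedgehog ligand of oral epithelium, had 10.68, 10.73 and 10.40 in distal arrays and 7.67, 7.88 and 7.75 in proximal arrays, 7.14-fold higher (log2 2.84, SE 0.225, adjusted p = 1.67e-14). Ptch1, its receptor and a transcriptional target, had 12.14, 12.17 and 12.10 in distal arrays and 11.25, 11.14 and 11.05 in proximal arrays, 1.98-fold higher. Hhip, a target that binds and limits the ligand, had 8.77, 8.61 and 8.75 in distal arrays and 7.41, 7.02 and 6.92 in proximal arrays, 3.02-fold higher. No distal array of these genes fell within the proximal range.

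Gli1, a target and effector, was 1.59-fold higher, and the effectors Gli2 and Gli3 were called with differences of 0.47 and 0.39. Dhh, the ligand of peripheral nerve and testis, was 1.54-fold lower (5.93, 5.91 and 6.07 in distal arrays, 6.55, 6.82 and 6.42 in proximal arrays). Another Dhh probe set gave -0.15 and was not called. Over 14 genes 7 were higher, 1 lower and 6 not called, with a median of 0.10, and 2 were lower without distal replicate 2 or without proximal replicate 3. Gas1, a coreceptor of high signal, had 0.08 (adjusted p = 0.183).

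Bone morphogenetic protein (Bmp) genes had 9 of 20 members higher, 4 lower and 7 not called (median 0.12). The ligands Bmp6 and Bmp4 were 3.06-fold and 2.03-fold higher, Bmp4 with 10.90, 10.96 and 10.80 in distal arrays and 9.99, 9.90 and 9.71 in proximal arrays. The feedback inhibitors Bambi and Smad7 were 1.86-fold and 1.47-fold higher. The antagonist Chrdl1 (6.82, 6.63 and 6.82 in distal arrays, 8.16, 7.71 and 8.11 in proximal arrays) was 2.36-fold lower, and the ligand Bmp5 1.75-fold lower. Id1, Id2 and Id3, common targets of the pathway, were not called, with differences of 0.12, -0.04 and -0.04.

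Fibroblast growth factor (Fgf) genes had 3 higher, 5 lower and 12 not called of 20 (median -0.09). The higher share was that over all genes, 15%. The receptors Fgfr2 and Fgfr1 were 1.78-fold and 1.54-fold higher. Fgf7, a mesenchymal ligand that acts on epithelium, had 8.46, 8.38 and 8.40 in distal arrays and 9.59, 9.52 and 9.51 in proximal arrays, 2.18-fold lower. The targets Etv5, Spry2 and Dusp6 were 1.49-fold, 1.41-fold and 1.28-fold lower, with arrays that did not overlap.

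Retinoic acid genes had 2 higher, 4 lower and 7 not called of 13 (median 0.01), with the higher share near the 15% over all genes. Aldh1a2, an enzyme that makes retinoic acid, had 7.500, 7.62 and 7.87 in distal arrays and 9.12, 9.34 and 8.98 in proximal arrays, 2.8-fold lower, and Aldh1a1 was at least 3.94-fold lower (4.503, 4.68 and 4.504 in distal arrays, 6.78, 6.98 and 6.51 in proximal arrays). Cyp26b1, which breaks retinoic acid down, was 1.8-fold higher (9.31, 9.25 and 9.20 in distal arrays, 8.66, 8.34 and 8.20 in proximal arrays). Aldh1a3 was called with a difference of -0.79, while its other probe sets gave -0.33 and -0.43 and were not called. Its call and that of Aldh1a1 were lost without the arrays numbered 1 (adjusted p = 0.0712 and 0.0655) and without those numbered 2 (0.134 and 0.0661), and that of Aldh1a3 also without distal replicate 2 (0.07).

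Tooth germ genes were higher for 10 of 20, lower for 2 and not called for 8 (median 0.45). Lhx8, a LIM homeobox gene of dental mesenchyme, had 10.28, 10.38 and 10.32 in distal arrays and 8.67, 8.69 and 8.503 in proximal arrays, 3.27-fold higher (adjusted p = 3.40e-25). Sostdc1, a Bmp and Wnt inhibitor that limits tooth number, had 11.98, 12.002 and 11.89 in distal arrays and 10.68, 10.72 and 10.56 in proximal arrays, 2.47-fold higher. Inhba, an activin subunit of dental mesenchyme, was 2.1-fold higher. Pax9, Lef1, Sp6 and Wnt10a, regulators and a ligand of tooth development, differed by 0.69, 0.77, 0.84 and 0.62. Isl1, a LIM homeobox gene of incisor epithelium and also of sensory neurons, was 1.67-fold higher, while Barx1 and Islr were called lower, with differences of -2.14 and -0.62.

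Surface epithelium markers were higher for 12 of 16 genes, lower for 1 and not called for 3 (median 0.74). Their summed linear signal was 49400 to 55500 in distal arrays and 27800 to 31400 in proximal arrays, which do not overlap. Trp63, the master regulator of stratified epithelium, had 11.36, 11.31 and 11.26 in distal arrays and 9.97 to 10.03 in proximal arrays, 2.47-fold higher. The basal keratins Krt14 and Krt5 were 2.83-fold and 2.19-fold higher, and the splicing regulator Esrp1 2.08-fold. Krt8, a keratin of simple epithelium, was 1.42-fold lower (9.04, 8.85 and 8.96 in distal arrays, 9.31, 9.58 and 9.47 in proximal arrays), a call lost without the arrays numbered 2 (adjusted p = 0.0804). The part of this epithelial content in the higher signals of Shh and of the leading keratins was not tested.

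Genes of stratified differentiation were higher for 10 of 16, lower for 1 and not called for 5 (median 0.53). Calml3, a calmodulin-like protein of differentiating epithelium, had 10.38, 9.98 and 9.87 in distal arrays and 8.15, 7.77 and 7.29 in proximal arrays, 5.07-fold higher, and Krt6a was 4.19-fold higher. Krt1, a suprabasal keratin of skin, was 2.21-fold higher (12.28, 12.29 and 12.14 in distal arrays, 11.57, 10.79 and 10.94 in proximal arrays). Lor, the cornified envelope protein loricrin, was called 1.45-fold lower, with overlapping arrays (8.02, 8.01 and 7.82 in distal arrays, 9.23, 7.89 and 8.32 in proximal arrays) and proximal replicate 1 the highest. Without that array its difference was -0.15 (adjusted p = 0.503).

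Tongue and taste papilla genes, a list that shares Hand2, Shh and Krt8 with others, had 4 higher, 3 lower and 3 not called of 10. Sox2, a factor of taste and tongue progenitors, had 9.30, 9.17 and 9.08 in distal arrays and 8.62, 8.63 and 8.09 in proximal arrays, 1.67-fold higher. Foxa1, a forkhead factor of endoderm-derived epithelium, had 5.22, 4.67 and 5.18 in distal arrays and 5.84, 7.12 and 7.13 in proximal arrays, 3.18-fold lower. Salivary gland epithelium had 3 higher, 3 lower and 7 not called of 13. Foxc1, a forkhead factor of mesenchyme and lacrimal or salivary gland, was 2.53-fold lower (7.54, 7.43 and 7.94 in distal arrays, 9.13, 9.07 and 8.73 in proximal arrays), while Cldn10 and Krt7 were 1.42-fold and 1.37-fold higher. These counts were unstable, at 1 higher without proximal replicate 3, 5 higher without distal replicate 2, and 1 lower without distal replicate 1 or proximal replicate 2.

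Cartilage genes were lower for 19 of 20, 0 higher, with a median of -1.57 and a summed linear signal of 6270 to 11300 in distal arrays and 30500 to 40800 in proximal arrays. Col2a1, the main collagen of cartilage, had 9.28, 9.71 and 10.49 in distal arrays and 12.64, 12.06 and 12.11 in proximal arrays, 5.45-fold lower (adjusted p = 1.16e-12). Acan, the aggregating proteoglycan aggrecan, had 6.58, 6.86 and 7.48 in distal arrays and 9.62, 8.81 and 9.17 in proximal arrays, 4.68-fold lower. In both genes distal replicate 3 was the highest distal array but stayed under every proximal one. Cnmd (chondromodulin) and Col9a3 were 7.58-fold and 6.28-fold lower, and Sox9, the chondrocyte master factor, was called with -1.26. Sox6 was the member not called (-0.22, adjusted p = 0.182). Leaving out the 2 arrays of unlike sex-linked signal, 16 members were lower.

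Most bone matrix genes were not called. Of 15 osteoblast genes 0 were higher, 2 lower and 13 not called (median -0.09), and the summed signal was 42500 to 56100 in distal arrays and 50500 to 54700 in proximal arrays. Cthrc1, a secreted collagen-triple-helix protein, was 1.67-fold lower (11.39, 11.23 and 11.86 in distal arrays, 12.30, 12.27 and 12.12 in proximal arrays). Phex, a peptidase of bone cells, was called lower with a difference of -0.68 although distal replicate 3 exceeded the proximal arrays (8.10, 8.04 and 9.32 in distal arrays, 9.23, 9.13 and 9.12 in proximal arrays). The call of Phex was lost without distal replicates 1 or 2 or proximal replicates 1 or 2 (adjusted p = 0.0513 to 0.216), and without distal replicate 3, 4 list members were lower. Sp7, Alpl and Col1a1, a regulator, an enzyme and a collagen of bone, were not called, at 0.16, 0.38 and -0.34.

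Calls among markers of late cartilage and osteoclasts depended on single arrays. Of 6 genes of hypertrophic cartilage 1 was higher, 1 lower and 4 not called. Col10a1, the collagen of hypertrophic cartilage, had 4.99, 5.09 and 5.03 in distal arrays and 9.20, 5.002 and 4.82 in proximal arrays. It was called lower with a difference of -1.30 (adjusted p = 0.0212), and without proximal replicate 1 the difference was 0.13 and not called, nor was it called without distal replicate 1 (0.0587). Mmp13, a collagenase of hypertrophic cartilage and bone, had 10.90, 9.55 and 11.19 in distal arrays and 9.58, 9.66 and 8.25 in proximal arrays, 2.61-fold higher with overlap. Of 11 osteoclast genes 2 were higher, 1 lower and 8 not called, with Mmp9 1.6-fold higher (10.09, 9.66 and 10.43 in distal arrays, 9.67, 9.56 and 8.91 in proximal arrays) and Ctsk, the osteoclast cathepsin, not called at -0.10. Both osteoclast shares were near those over all genes, 15% higher and 11.8% lower. Without distal replicate 3 or proximal replicate 3, 0 osteoclast genes were higher.

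Tendon genes had 5 of 9 lower, 1 higher and 3 not called (median -0.57). Leaving out any single array lost the lower call of Tnmd (limma adjusted p = 0.0523 to 0.147), and 4 members were then lower. That call was also lost with eBayes without trend (0.0595) and with robust eBayes (0.0706). Scx, the tendon progenitor factor scleraxis, was 1.48-fold lower (6.04, 5.85 and 5.80 in distal arrays, 6.55, 6.39 and 6.45 in proximal arrays), and Kera, Thbs4 and Fmod, matrix proteins of tendon and connective tissue, differed by -0.99, -0.96 and -0.71. Mkx, another tendon factor, was 1.38-fold higher, a call lost without distal replicate 3 (adjusted p = 0.0614) or proximal replicate 3 (0.0593).

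Contractile genes of muscle fibres were lower for 22 of 24, 0 higher and 2 not called, with a median of -1.28. Their summed signal was 59500 to 62800 in distal arrays and 123000 to 138000 in proximal arrays. Ckm, the muscle creatine kinase, had 8.65, 8.18 and 8.91 in distal arrays and 11.56, 11.18 and 11.53 in proximal arrays, 7.19-fold lower (adjusted p = 3.54e-20). Tnnt3, the fast troponin T, had 8.92, 8.74 and 9.03 in distal arrays and 11.31, 10.95 and 11.41 in proximal arrays, 5.01-fold lower. All proximal arrays of both lay above all distal ones. Fast troponin I (Tnni2), perinatal myosin (Myh8) and slow myosin (Myh7) were 3.66-fold, 3.48-fold and 2.91-fold lower. Actc1, the cardiac actin that fetal skeletal muscle also uses, was not called at -0.42 (adjusted p = 0.208). With the 2 arrays of unlike sex-linked signal left out, 19 members were lower.

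Promoter windows of 300 bases, from 250 before to 50 after the start site, are shown for 4 fibre genes that were lower together. The E-box CAGCTG was searched because it is a form bound by the Myod1 family. The 4 are the called fibre genes of largest difference among those whose window holds it, so its presence was a condition of their choice. Fibre genes with larger differences than Tnni1, such as Tnnt3, Tnni2 and Myh8, were passed over because no window with the motif was found. The motif reads the same on both strands, and no other motif was searched. Capitals mark it in the RefSeq windows of build GRCm38.p6.
Ckm: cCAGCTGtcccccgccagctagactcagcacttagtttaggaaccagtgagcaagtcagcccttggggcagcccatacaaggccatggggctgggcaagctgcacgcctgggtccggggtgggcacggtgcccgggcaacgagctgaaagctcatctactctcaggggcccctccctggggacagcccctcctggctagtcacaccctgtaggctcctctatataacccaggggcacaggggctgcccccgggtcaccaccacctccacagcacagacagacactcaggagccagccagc
Tnni1: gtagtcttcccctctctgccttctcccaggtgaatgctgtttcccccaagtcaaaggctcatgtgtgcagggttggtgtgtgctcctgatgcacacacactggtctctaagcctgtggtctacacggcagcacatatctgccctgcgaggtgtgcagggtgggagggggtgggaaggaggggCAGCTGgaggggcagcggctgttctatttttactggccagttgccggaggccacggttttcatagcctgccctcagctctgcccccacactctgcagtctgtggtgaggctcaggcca
Des: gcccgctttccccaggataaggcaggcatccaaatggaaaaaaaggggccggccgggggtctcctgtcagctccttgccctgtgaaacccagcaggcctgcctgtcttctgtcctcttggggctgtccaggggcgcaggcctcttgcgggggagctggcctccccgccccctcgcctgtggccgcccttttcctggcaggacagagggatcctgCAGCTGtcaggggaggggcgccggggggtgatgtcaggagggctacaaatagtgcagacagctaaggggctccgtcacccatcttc
Acta1: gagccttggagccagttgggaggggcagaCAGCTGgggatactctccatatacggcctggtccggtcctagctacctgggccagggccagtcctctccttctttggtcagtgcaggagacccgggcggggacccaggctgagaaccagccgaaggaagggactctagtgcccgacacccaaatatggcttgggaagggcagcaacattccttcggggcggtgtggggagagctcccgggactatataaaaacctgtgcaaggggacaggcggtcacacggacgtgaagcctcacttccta
These lie at chr7:19410844-19411143 on the plus strand (Ckm), chr1:135799171-135799470 on the plus strand (Tnni1), chr1:75360042-75360341 on the plus strand (Des, the muscle intermediate filament desmin) and chr8:123894726-123895025 on the minus strand (Acta1, skeletal actin). The motif starts 249, 68, 36 and 221 bases upstream of the start site in Ckm, Tnni1, Des and Acta1. Tnni1, Des and Acta1 differed by -1.37, -1.36 and -1.32. Of the muscle fibre genes 20 had a RefSeq window and 9 of these held the motif (45.0%), against 18.3% of all 27025 genes in the table and 16.3% of its 32851 windows. For comparison it was found in 6 of 15 cartilage genes (40%), 2 of 7 surface epithelium genes (28.6%) and 0 of 7 muscle regulators. A match describes these letters only.

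The regulators upstream of the fibres moved less evenly. Of 14 skeletal muscle regulators 7 were lower, 3 higher and 4 not called (median -0.60). Myf6, the myogenic factor of maturing fibres, had 5.55, 5.21 and 5.71 in distal arrays and 8.20, 7.53 and 8.37 in proximal arrays, 5.83-fold lower. Myog, which drives terminal differentiation, had 11.002, 10.98 and 10.98 in distal arrays and 11.79, 11.84 and 11.97 in proximal arrays, 1.84-fold lower. Myod1 was 1.7-fold lower, and Myf5, the earliest of the 4 factors, was not called at -0.61 (adjusted p = 0.0999), although its arrays did not overlap.

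The fusion protein gene Mymk and the satellite cell factor Pax7 were 2.15-fold and 1.9-fold lower. Pax3, Lhx2 and Tbx1 were higher against the list. Lhx2, a LIM homeobox gene, had 7.24, 7.02 and 6.81 in distal arrays and 5.42, 5.20 and 5.13 in proximal arrays (3.42-fold higher), and Tbx1, a T-box gene of arch mesoderm and dental epithelium, differed by 0.62.

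Heart muscle markers were checked because Myl2 leads the lower genes. Of 11 markers 5 were lower, 2 higher and 4 not called, with 1 higher without proximal replicate 1. The higher share lay near the 15% over all genes. Myl2, Myl3, Csrp3 and Myh7, which slow skeletal fibres also use, were lower, with Myl3 at 6.27, 6.20 and 6.19 in distal arrays and 8.20, 7.89 and 8.14 in proximal arrays. The fifth lower marker was Myh6, the alpha myosin heavy chain of heart, near 4.78 with 4.52, 4.64 and 4.59 in distal arrays and 5.03, 5.14 and 5.04 in proximal arrays, a call lost without distal replicate 1 (adjusted p = 0.0503) or proximal replicate 2 (0.0504). Higher were Ryr2, the cardiac calcium release channel, with 5.12, 5.47 and 5.57 in distal arrays and 4.49, 4.68 and 4.49 in proximal arrays, and Nkx2-5, a homeobox gene of heart progenitors, with 6.18, 6.31 and 6.21 in distal arrays and 5.54, 5.96 and 5.93 in proximal arrays. The call of Nkx2-5 was lost without proximal replicate 1 (adjusted p = 0.123). Other probe sets of Ryr2 and Myh6, under 4.78 in both pieces, gave -0.00067 and 0.016 and were not called. Nppa, a defining atrial marker, was under 4.78 on all arrays (3.52, 3.55 and 3.56 in distal arrays, 3.51, 3.44 and 3.67 in proximal arrays), and the cardiac troponin Tnni3 and the atrial light chain Myl7 were not called, at 0.08 and 0.04. The summed signal of the list was 1230 to 1490 in distal arrays and 4080 to 5130 in proximal arrays. Its brightest members in the proximal piece were Csrp3, Myh7 and Myl2 (means 10.80, 10.37 and 10.06). Slow skeletal fibres also use these, so the sum does not single out heart muscle.

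Inner ear genes were lower for 9 of 12, 0 higher and 3 not called (median -1.28), with a summed signal of 3430 to 3580 in distal arrays and 8830 to 11700 in proximal arrays. Besides Oc90 and Otor, Coch, the cochlear matrix protein cochlin, had 5.81, 5.95 and 5.90 in distal arrays and 8.97, 8.72 and 8.15 in proximal arrays, 6.61-fold lower. Tectb, a protein of the tectorial membrane, had 3.77, 3.90 and 3.86 in distal arrays and 6.83, 7.25 and 5.41 in proximal arrays, at least 3.29-fold lower, with proximal replicate 3 the lowest of its group. Fbxo2 and Tecta were 3.54-fold and 2.68-fold lower. The part of ear tissue in the lower signals of other genes was not tested.

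Neuron markers were lower for 11 of 16, higher for 1 (Isl1) and not called for 4 (median -1.01), and their summed signal was 4460 to 4700 in distal arrays and 7740 to 10800 in proximal arrays. Stmn3, a microtubule regulator of neurons, had 7.01, 6.51 and 6.81 in distal arrays and 9.22, 9.68 and 10.06 in proximal arrays, 7.35-fold lower. The neurofilaments Nefl and Nefm were 4.39-fold and 3.62-fold lower, with proximal replicate 3 highest for both (10.81, 10.88 and 11.24 for Nefl). Schwann cell genes had 4 of 8 lower and 0 higher, with Fabp7, a glial fatty acid binding protein, 3.24-fold lower (8.72, 8.66 and 8.71 in distal arrays, 10.24, 10.40 and 10.54 in proximal arrays). Pigment cell genes had 5 of 8 lower and 0 higher, and 3 lower without the arrays numbered 1 or 2. Dct, a melanin enzyme, was 2.86-fold lower (7.07, 7.16 and 6.94 in distal arrays, 8.80, 8.53 and 8.40 in proximal arrays).

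Vessel and blood cell markers were mostly lower or not called. Endothelium had 10 of 12 genes lower, 1 higher and 1 not called (median -0.33), led by the angiopoietin receptor Tek (1.68-fold lower), while Sox18 was 1.46-fold higher. Without the arrays numbered 1, or without the 2 arrays of unlike sex-linked signal, 5 endothelial genes were lower. Smooth muscle and pericyte genes had 5 of 9 lower and 0 higher, with the channel gene Kcnj8 2.18-fold lower. Macrophage genes had 6 of 12 lower and 0 higher, with Lyve1 and Lyz2 at -0.87 and -0.63, with 2 lower without those 2 arrays or those numbered 1, and 3 without those numbered 2. Red blood cell genes had 1 of 8 higher, the embryonic globin Hbb-bh1 at 0.51, a share near the 15% over all genes.

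Mast cell genes had 3 of 8 higher, 1 lower and 4 not called (median 0.23), and their summed signal was 6060 to 6890 in distal arrays and 4960 to 6140 in proximal arrays, which overlap. The protease Mcpt4, related to the leading gene Mcpt2, had 7.91, 7.78 and 7.49 in distal arrays and 6.02, 6.48 and 6.03 in proximal arrays, 2.93-fold higher. Cpa3, a defining mast cell protease, was not called at 0.16 (adjusted p = 0.605), and 1 member was higher without the arrays numbered 2.

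Lists of processes that many cells share had medians close to that of all genes. Cell cycle genes had 7 of 19 higher, 0 lower and 12 not called, but the median was 0.075 and the called differences ran up to 0.36 in Cenpf, a centromere protein, with Mki67 at 0.07 and not called. The count higher was 4 without distal replicate 1 or proximal replicate 1, with 1 then lower in the second case. Without the arrays numbered 1 it was 3, with 1 lower. Centring arrays on their medians lost the calls of Bub1, Rrm2 and Mcm5 (limma adjusted p = 0.0616, 0.11 and 0.0755). Immediate early genes had 3 of 15 higher and 2 lower (median -0.04), with Fos at 0.41 and Klf2, an endothelial factor, at -0.68, and 1 was higher without proximal replicate 2. Hypoxia and glycolysis genes had 2 of 14 higher and 1 lower (median -0.09), with the glucose transporter Slc2a1 at 0.39 and Adm, a vasodilator peptide, at -0.55, and 0 were higher without the arrays numbered 2. For the immediate early and the hypoxia lists the shares lay near those over all genes, 15% higher and 11.8% lower.

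**Figure D4:**
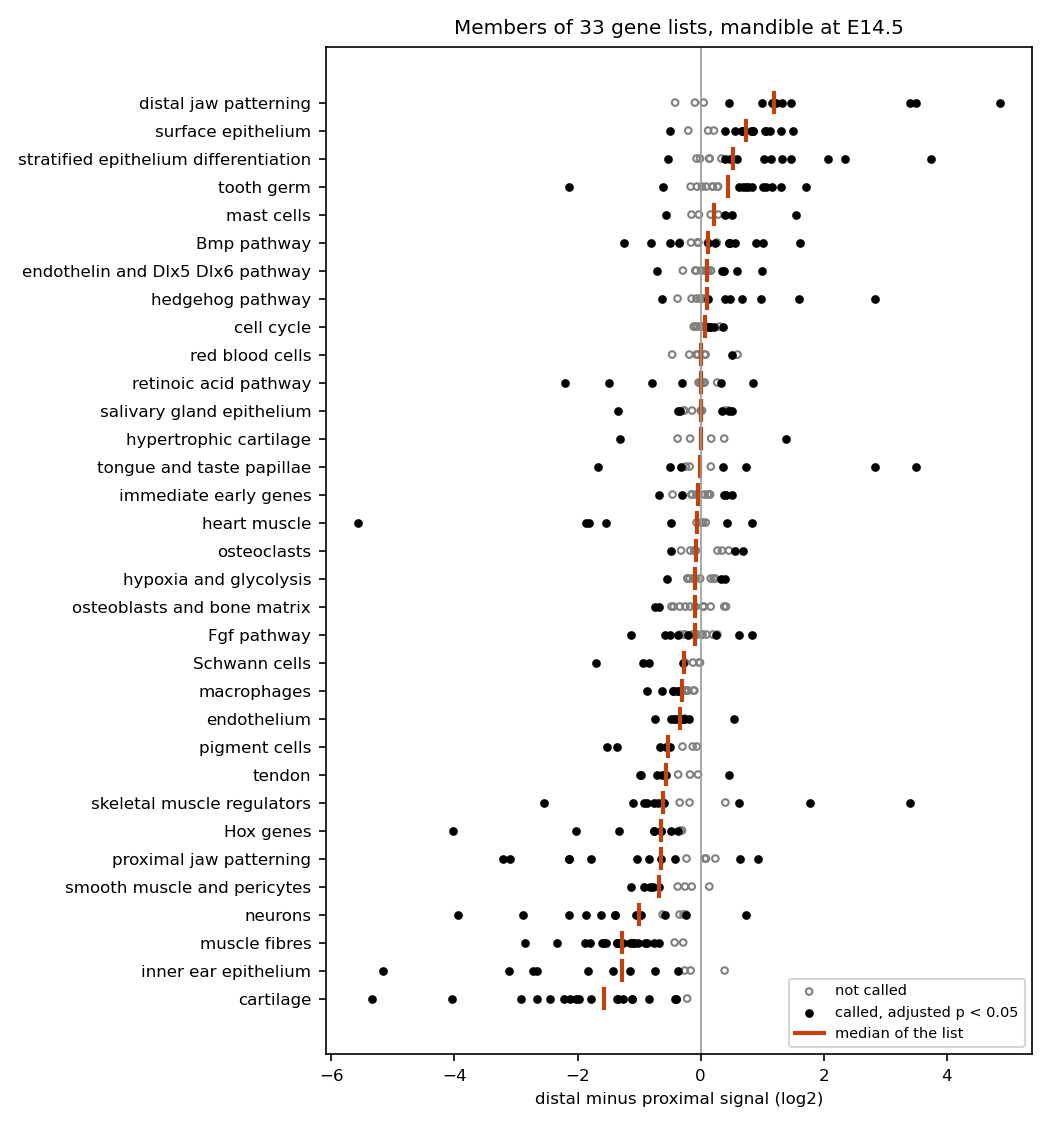
Distal minus proximal log2 signal of every measured member of the 33 gene lists in the mandible at E14.5, filled where called. Red bars are list medians, from 1.19 for distal jaw patterning at the top to -1.57 for cartilage at the bottom; the median over all genes is 0.00733.

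Whether the position difference changed in the last day sampled was tested as the E14.5 difference less that at E13.5, both in batch 1. The contrast was called for 310 of 18193 genes (1.7%), 234 with a higher value at E14.5 (1.29%) and 76 with a lower one (0.418%). The count was 191 without distal replicate 1, 175 without the arrays numbered 1, 186 without those numbered 2, and 777 with array quality weights. Sex-linked signal was also uneven at E13.5, where distal replicate 1 was low for Xist (6.37) and proximal replicate 3 for Eif2s3y (3.50). Neither E13.5 array was left out in any alternative, and the part of sex in this contrast was not tested. Hand2, Alx1, Pax3 and Shh were not among them, with E13.5 differences of 3.28, 5.35, 3.63 and 2.76 and contrasts of 0.22, -0.49, -0.22 and 0.07 (adjusted p = 0.739, 0.74, 0.821 and 0.978 in that order).

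Some epithelial genes gained distal excess, although of the 16 genes of stratified differentiation the contrast was called for 2 upward and 1 downward, and of the 16 surface markers for 0 upward and 1 downward. Sprr3 had 6.48, 6.15 and 6.24 in distal arrays and 5.68, 5.55 and 5.72 in proximal arrays at E13.5, a difference of 0.64, so that the contrast was 2.67 (SE 0.188, adjusted p = 6.92e-15). At E14.5 only the distal arrays stood above these values by more than 2 log2 units. Idi2, Mcpt2, Krt6b, Qrfpr, Dynap and Krt13 had contrasts from 1.38 for Krt13 to 2.86 for Idi2, of uncertain size where a group lies under 4.78. Lhx2 and Mcpt4 also gained, with differences of 1.77 and 1.55 at E14.5 and -0.15 and 0.11 at E13.5 (contrast adjusted p = 7.00e-06 and 1.74e-06).

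Dlx1as and Igfbpl1 had differences of opposite sign at E14.5 and E13.5. Dlx1as, the antisense transcript of Dlx1, had 8.92, 9.23 and 8.91 in distal arrays and 8.26, 8.42 and 8.23 in proximal arrays at E14.5, a difference of 0.72 that was not called. At E13.5 it had 7.23, 5.91 and 6.93 in distal arrays and 8.95, 9.51 and 9.23 in proximal arrays, a difference of -2.54 (contrast 3.26, adjusted p = 2.34e-05). Which strand its probes read is not known here, so transcripts of Dlx1 cannot be told apart from it. Igfbpl1, an insulin-like growth factor binding protein relative, had a difference of 0.85 at E14.5 and -1.93 at E13.5 (contrast 2.78). Another Igfbpl1 probe set gave 0.26 at E14.5 and was not called. C1qtnf3 had -3.21 at E14.5 and -5.78 at E13.5, with a contrast of 2.57.

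A few muscle, fat and cartilage genes had a more negative difference at E14.5. Myl2 had 4.04, 4.07 and 4.14 in distal arrays and 5.97, 7.05 and 4.85 in proximal arrays at E13.5, a contrast of -3.69 (SE 0.327, adjusted p = 8.79e-12) of uncertain size, since the distal signals lay under 4.78. Adipoq, the fat cell hormone adiponectin, had 3.74, 3.84 and 3.69 in distal arrays and 5.61, 7.42 and 7.14 in proximal arrays at E14.5, with proximal replicate 1 the lowest of its group. At E13.5 it had 3.80, 3.64 and 3.60 in distal arrays and 3.70, 3.77 and 3.76 in proximal arrays, all under 4.78. Car3, a carbonic anhydrase of slow muscle and fat, and Hspb7, a small heat shock protein of muscle, had contrasts of -1.51 and -1.44, and Otor one of -2.26. Over the muscle fibre list the median difference was -1.28 at E14.5 and -2.00 at E13.5, with 0 members called for a gain and 1, Ckm, for a further fall (-0.95, adjusted p = 0.0104).

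The upper jaw gives a second setting for the same axis. The mandible's difference less that of the maxilla at E14.5 was called for 4110 of 18193 genes (22.6%), 1925 with a higher value in the mandible (10.6%) and 2185 with a lower one (12%). Mandible and maxilla arrays lie in batches 1 and 2. Each difference is formed within its batch, so an additive shift between batches cancels, while signals scaled unlike between batches cannot be told apart from jaw.

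Hand2 had 6.47, 6.58 and 6.38 in distal and 7.499, 7.33 and 7.34 in proximal maxilla, a difference of -0.91, so its contrast was 4.40 (SE 0.163, adjusted p = 2.94e-26). Alx1 had 10.12, 10.18 and 10.05 in distal and 9.44, 9.35 and 9.55 in proximal maxilla, high in both, and a contrast of 4.19 (SE 0.368). Msx2 had a difference of 1.23 in the lower jaw and -1.16 in the upper, a contrast of 2.38, whereas Msx1 had 1.41 in the maxilla and its contrast of -0.25 was not called (adjusted p = 0.664). Shh was 0.79 in the maxilla, with a contrast of 2.05. Of the distal patterning list 7 of 12 had a higher difference in the mandible and 0 a lower one, and of the proximal patterning list 9 of 15 had a lower difference in the mandible and 0 a higher one.

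Hoxa2 was under 4.78 in both maxilla pieces (4.22, 4.41 and 4.20 in distal and 4.35, 4.29 and 4.55 in proximal arrays), and its contrast was -3.91, of uncertain size. For the Hox list 9 of 11 genes had a lower difference in the mandible, and the maxilla median was 0.06. Matn1 was high in both maxilla pieces, 10.13, 10.21 and 10.17 in distal and 11.72, 11.68 and 11.53 in proximal arrays, and 14 of 20 cartilage genes had a lower difference in the mandible (maxilla median -0.61).

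For nerve genes the contrast was positive. The neuron list had a median of -1.01 in the lower jaw and -4.04 in the upper, and all 16 members had a contrast called higher. Isl1 had 9.99, 9.94 and 9.71 in distal and 8.90, 9.23 and 9.29 in proximal mandible, a difference of 0.74. In the maxilla it had 8.16, 8.20 and 8.22 in distal and 11.87, 11.83 and 11.81 in proximal arrays, a difference of -3.64 (contrast 4.39, SE 0.218). Ret, a receptor tyrosine kinase of neurons and kidney, had 7.24, 7.06 and 7.32 in distal and 6.73, 6.92 and 7.99 in proximal mandible and was not called there, but had 6.41, 6.25 and 6.26 in distal and 11.44, 11.52 and 11.49 in proximal maxilla, a contrast of 5.17. Jakmip2, a protein of neurons, had a contrast of 4.34.

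The osteoblast median was -0.09 in the lower jaw and 1.35 in the upper, and 9 of 15 members had a lower difference in the mandible, such as Phex with -2.54 (adjusted p = 2.41e-08). Bpifa1, a secreted defence protein of nasal airway epithelium, had 3.65, 3.92 and 3.45 in distal and 5.12, 5.26 and 4.90 in proximal mandible. In the maxilla it had 10.77, 10.95 and 10.82 in distal and 7.98, 7.90 and 8.10 in proximal arrays, a contrast of -4.28, of uncertain size. Aldh1a1 had 8.19, 8.29 and 8.21 in distal and 6.82, 6.64 and 6.35 in proximal maxilla, with a contrast of -3.82 (adjusted p = 0.00172), of uncertain size.

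**Figure D5:**
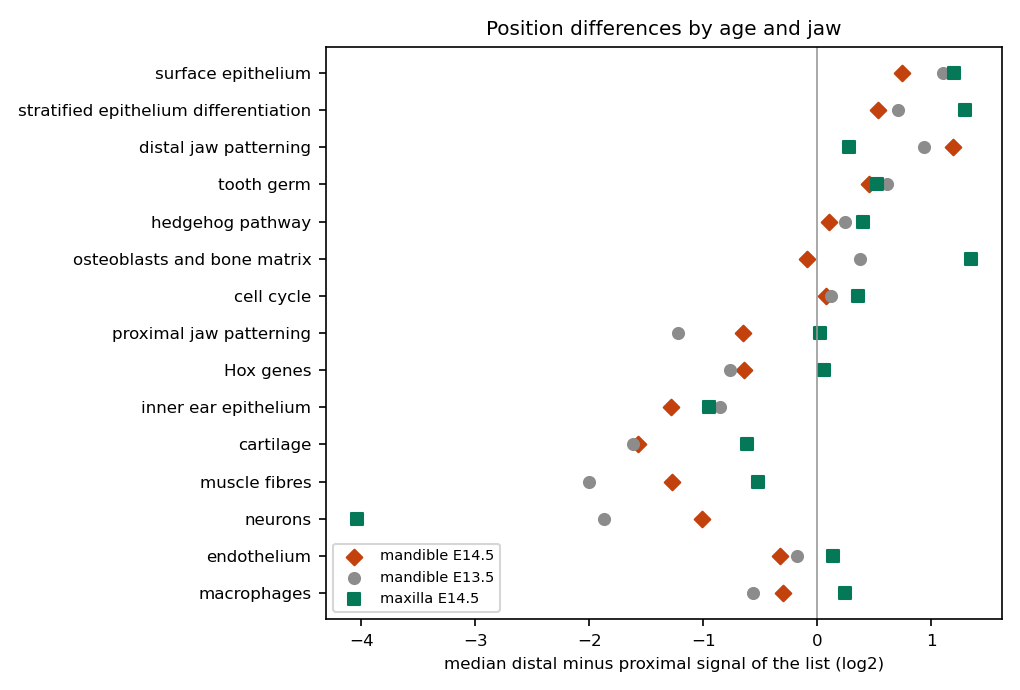
Median distal minus proximal log2 signal of 15 gene lists in the mandible at E14.5 (diamonds), the mandible at E13.5 (circles) and the maxilla at E14.5 (squares). Neuron genes have medians of -1.01, -1.87 and -4.04 in these, and osteoblast genes -0.09, 0.38 and 1.35.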

How the data were processed

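The deposited log2 signals were made with RMA, per the submitters' processing notes. It subtracts background, brings arrays to one distribution and combines the probes of a set. The sources used here name no version and do not say whether all 60 arrays were treated together. The values were used as deposited. Of 45101 probe sets 64 are controls, 34945 have 1 gene symbol, 932 several and 9160 none in the platform annotation. Only the first kind was used, and 34741 matched a RefSeq gene table (GRCm38.p6), used for names, with 0 symbols changed. The 9010 genes with several probe sets took the one with the highest mean over all arrays.

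All 60 arrays entered a limma fit (limma 3.58.1, R 4.3.3) with 1 mean per group (20 groups, 40 residual degrees of freedom) and eBayes with trend, two-sided, with Benjamini-Hochberg adjustment over 18193 genes. On simulated data with 100 genes each changed by 0.5 and by 1 log2 unit, 81% and 98% were recovered, with 6 false calls.

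Groups come from the array titles. The members and the 33 gene lists (19 of pathways and processes, 14 of cell types) were chosen with earlier results of these data known. Lists are described by counts and medians without a set test. Named genes are the 12 called genes with the largest difference per direction (mean of at least 6 in the higher piece, no predicted or sex-linked genes, arrays not overlapping), 5 per direction for each interaction, up to 6 called members per list with up to 2 called against its median and the member of highest level not called, and small families. Other genes named from the lists were chosen after their values were seen. Alternatives changed the normalization, the filter, the probe set choice, the arrays fitted, the eBayes settings and the array weights, added the replicate number as a block, or left out arrays. Whether replicate numbers pair the pieces is not labelled, and the main fit did not pair them.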

Additional observations from a re-analysis of the deposited data

Results flagged for a closer look

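The position difference differed between E14.5 and E13.5, by the test of the difference itself (limma contrast, adjusted over all genes), for some of the genes named above. It was more positive at E14.5 for Dlx1as (3.26), Idi2 (2.86), Igfbpl1 (2.78), Sprr3 (2.67), C1qtnf3 (2.57), Mcpt2 (2.52), Krt6b (2.44), Qrfpr (1.89), Dynap (1.81) and Krt13 (1.38). It was more negative for Myl2 (-3.69), Adipoq (-2.91), Otor (-2.26), Car3 (-1.51) and Hspb7 (-1.44). The adjusted p of Krt13 was 5.35e-04.

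Between the jaws the difference at E14.5 differed, by the same kind of test, for further named genes. It was more positive in the mandible for Ret (5.17), Hand2 (4.40), Isl1 (4.39), Jakmip2 (4.34), Alx1 (4.19), Krt6b (3.62), Idi2 (3.33), Dynap (3.30), Sprr3 (3.18), Qrfpr (2.93), Mcpt2 (2.22), Krt13 (2.05), Tmprss11a (1.99), Prph (1.92), Odam (1.92) and Pax3 (1.56). It was more negative for Myl2 (-4.83), Bpifa1 (-4.28), Hoxa2 (-3.91), Matn1 (-3.86), Aldh1a1 (-3.82), C1qtnf3 (-3.19), Epyc (-2.67), Calb1 (-2.20), Otor (-1.79), Crh (-1.76), Sim2 (-1.70) and Oc90 (-1.35). Prph had a negative difference in both jaws, -3.95 in the mandible and -5.87 in the maxilla. Sizes are uncertain where a group lies under 4.78.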

How the results depend on the processing

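All 24 leading genes kept direction and call of the position difference under every alternative that held them. The 10 genes named for each interaction kept direction and call of that contrast, but not always of the position difference, as for Aldh1a1. They were chosen for large differences on these same arrays, so this is not independent support. Of 5835 recomputed differences of 266 named genes, 5542 kept their status as called or not called, 228 lost the call and 62 gained one. A turn of sign was counted only where a gene was called in the main or the recomputed fit. So counted, 3 turned sign, all of Col10a1: 0.15 without replicate 1, 0.13 without proximal replicate 1 and 0.10 without the 2 arrays of unlike sex-linked signal. Without single replicates or arrays Col10a1 ran from -2.06 to 0.15. Calls were also lost for Cldn10 and Mmp9 without proximal replicate 3 (adjusted p = 0.0594 and 0.119), for Fos without proximal replicate 2 (0.0657) and for Slc2a1 without the arrays numbered 2 (0.113). With all probe sets as units 7525 were called, 4296 higher and 3229 lower, and 6354 for the jaw contrast, since more units were tested. Array quality weights, whose estimation did not reach its tolerance, gave 777 genes for the age contrast and 6172 for the jaw contrast; the cause was not tested. Leaving out replicates or single arrays gave 3392 to 4353 called, 1817 (without replicate 3) to 2495 higher, 1418 (without replicate 1) to 2125 lower, 510 to 576 at least 2-fold, 3204 to 4062 for the jaw contrast and 175 to 312 for the age contrast, at 175 without replicate 1, 186 without replicate 2 and 191 without distal replicate 1; fewer arrays entered these. Without the 2 arrays of unlike sex-linked signal the age and jaw contrasts called 222 and 3196. Both arrays are of E14.5, and the E13.5 arrays of unlike sex-linked signal stayed in the age contrast. The replicate block called 4825 genes with all arrays and 4640 with only the arrays compared, 283 and 340 for the age contrast and 4027 and 4014 for the jaw contrast. Same-numbered arrays of the pieces had correlations of their deviations of 0.11, 0.04 and -0.08, and those of unlike number ran from -0.15 to 0.13. With 3 arrays a piece these values cannot decide whether the numbers pair the pieces. Higher calls were 56% of the calls, 50.8% after centring arrays on their medians, 61.1% without the 2 arrays of unlike sex-linked signal and 48.5% without replicate 3, where lower calls outnumber higher ones. The values used here carry no detection calls, so dim genes have uncertain sizes.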

Other observations

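Genes outside the lists, chosen after their values were seen, add further tissues. Some genes of Wnt signalling were higher distally. Sfrp4, a secreted Wnt antagonist, had 11.54, 11.44 and 11.64 in distal arrays and 8.88, 8.30 and 8.33 in proximal arrays, 8.21-fold higher (limma adjusted p = 5.38e-12). The ligand Wnt16 and the Wnt-amplifying receptor Lgr6 were 3.16-fold and 3.27-fold higher. Cbln4, a secreted cerebellin, had 7.99, 8.20 and 7.91 in distal arrays and 5.37, 4.79 and 4.66 in proximal arrays, and the homeobox gene Otx1 7.95, 8.21 and 7.65 in distal arrays and 5.70, 5.89 and 5.96 in proximal arrays. Spink5, the protease inhibitor of cornifying epithelium, was at least 3.78-fold higher (6.81, 6.86 and 6.44 in distal arrays, 3.85, 3.90 and 3.67 in proximal arrays).

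Among the genes lower distally were some of neutrophils, fat, cartilage and mesenchyme. S100a8, a calcium-binding protein that neutrophils make in bulk, had 7.02, 7.20 and 7.24 in distal arrays and 9.27, 9.89 and 10.03 in proximal arrays. Its partner S100a9 had 7.01, 7.26 and 7.17 in distal arrays and 9.21, 9.37 and 9.47 in proximal arrays. Ngp, a neutrophil granule protein, was 4.23-fold lower. Fabp4, a fatty acid binding protein of fat cells and capillaries, had 8.87, 8.35 and 8.79 in distal arrays and 10.49, 10.72 and 10.75 in proximal arrays, 3.95-fold lower, beside Adipoq. Cytl1 and Mia, secreted proteins of cartilage, were 7.58-fold and 6.35-fold lower. Foxc2, a forkhead factor of mesenchyme and vessels, Hmx1, a homeobox gene of the external ear region, and Pou3f4, a factor of otic mesenchyme, were 4.54-fold, 4.61-fold and 4.25-fold lower, with no overlap between the arrays of the pieces.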
